A study of Gallus gallus with 6 samples.

Results

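Transcripts of 10 genes were followed in the basilar papilla (BP), the hearing epithelium of the chick, after damage by an antibiotic. They belong to the system that carries proteins between cytoplasm and nucleus. All are called transport genes here, although TPX2 encodes a spindle protein that this system binds. The 10 genes were the importin alpha genes KPNA2, KPNA3, KPNA4 and KPNA6, the transport receptors KPNB1, XPO1 and CSE1L, the small GTPase RAN with its binding protein RANBP1, and the spindle protein TPX2. They are 10 of the 13009 genes that the array's annotation names, and all 22 probe sets with their symbols were used, of 38382 probe sets. A probe set is a group of short probes for 1 transcript. The genes were chosen by measured values as well as by role: KPNA2 was selected on its higher value at 72 hrs, and the others were added as its family and partners with the values of these arrays known. Their levels and differences are therefore given as a description, without a test.

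RNA came from the basal part of BPs of wild type chicks. Their age is given as 12 to 16 days, which in the study's methods is the age at gentamicin treatment. The 3 groups were chicks without treatment, matched in age, and chicks sampled 48 or 72 hrs after gentamicin, an aminoglycoside toxic to hair cells (HCs). Each group had 2 arrays, titled as biological replicates 1 and 2, and each array held RNA pooled from several BPs, so that a difference between arrays is a difference between pools and not between chicks. In this epithelium the supporting cells around the lost HCs can divide, and the comparisons ask which genes differ while they do so.

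Proteins with a nuclear localization signal are carried into the nucleus by a pair of receptors. An importin alpha binds the signal, importin beta (the product of KPNB1) binds the alpha subunit and moves the complex through the pore, and RAN in its GTP form releases the cargo inside. CSE1L then returns the empty importin alpha to the cytoplasm, XPO1 (CRM1) exports proteins with a leucine-rich export signal, and RANBP1 helps to switch RAN off in the cytoplasm. In mitosis, when the envelope is open, the same system works around the chromosomes, where RAN-GTP frees spindle proteins such as TPX2 from the importins. KPNA2 is known in mammals for high levels in dividing cells.

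The arrays had median intensities from 26.47 to 30.1, and values were analysed as log2 intensity. Levels of different probe sets are not compared with each other, because each has its own brightness. Of the markers, 10 of 10 measured for HCs and 8 of 8 for supporting cells and the tectorial membrane were brighter than the median probe set. The summed intensity of the HC markers was 5431 and 5874 in controls, 5663 and 6615 after 48 hrs and 6270 and 6670 after 72 hrs. Its members did not move together. From controls to 48 hrs the mean log2 intensity of CALB2 went from 6.3 to 10.85, and that of CHRNA9 from 7.64 to 6.66. The sum is thus not read as HC number. The sum of the supporting cell and tectorial membrane markers was 27670 to 29910 per array. Its brightest members weigh most in it, such as TECTB and GJB6 with mean log2 intensities of 13.29 and 13.52. The dimmer SOX2 had 6.96 and 7.89 in controls, 6.82 and 6.94 after 48 hrs and 6.91 and 8.34 after 72 hrs. This sum is thus not read as supporting cell number. The markers of connective tissue (6 of 6), leukocytes (5 of 5) and glia (2 of 2 measured) were brighter than the median as well. This mark therefore cannot tell tissues apart, and the tissue label was not tested. The summed intensity of 6 connective tissue markers was 2912 on control array 1 and 432.8 to 776.6 on the other arrays. HBA1, the only red blood cell marker measured, had intensities of 796.5 and 38.2 in controls, 321.6 and 113.1 after 48 hrs and 511.9 and 41.2 after 72 hrs. It was thus higher on the replicate 1 array of each group. The part of blood in other differences was not tested. The 3′ probe set of GAPDH exceeded the 5′ probe set by 2.05 to 3.0 (log2) on the replicate 1 arrays and by 3.31 to 4.97 on the replicate 2 arrays, a gap that widens with RNA degradation. HINTW, a gene of the female W chromosome, had log2 intensities of 10.79 to 11.60 on the control and 48 hr arrays but only 3.93 and 3.72 at 72 hrs. The time of 72 hrs and the sex of the pooled chicks thus cannot be told apart. Of the 10 transport genes, 0 lie on the W or Z chromosome in the assembly GRCg7b.

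KPNA2 was 19.6 times brighter at 72 hrs than in controls. Its log2 intensity was 5.06 and 4.51 in controls, 5.82 and 4.34 after 48 hrs and 9.37 and 8.78 after 72 hrs. Both 72 hr arrays stood above the other 4 arrays by a wide gap, whereas the 48 hr arrays lay on either side of the controls. Controls averaged 4.78 ± 0.39, the 48 hr arrays 5.08 ± 1.05 and the 72 hr arrays 9.08 ± 0.42 (SD, n = 2 arrays each). The difference of the means on the log2 scale, the log2 fold change, was 4.29 at 72 hrs. Its standard error, 0.50, is the moderated one of a linear model over all 6 arrays (limma, described below). The lower 72 hr array exceeded the higher control array by 3.72. By replicate number the difference was 4.32 and 4.27 at 72 hrs and 0.77 and -0.16 at 48 hrs. Here and below, such differences subtract same-numbered arrays, and the numbers are not shown to pair them. The closeness of 4.32 and 4.27 is therefore not read as agreement of replicates. In controls the intensity of KPNA2, 33.25 and 22.75, was close to the median of an array, so that its starting level is not well measured. KPNA2 has only 1 probe set here, and the suffix of its name says that its probes may match more than 1 transcript.

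Most markers of dividing cells were higher on the same arrays. This list too was chosen with earlier results of these data known, so its calls are a description. The summed intensity of 6 such markers (MKI67, TOP2A, CCNB1, CDK1, PCNA and RRM2) was 562.8 and 587 in controls, 640.8 and 547.5 after 48 hrs and 3607 and 1983 after 72 hrs. The 72 hr arrays were thus higher for the sum of this list as well as for KPNA2, and replicate 1 was the higher of the 2 for both. Among the 6 markers TOP2A alone had the reverse order, with log2 intensities of 8.80 and 8.99 after 72 hrs. PCNA, which did not differ in the mean, also adds to the sum. All 6 were measured, 5 of them on probe sets brighter than the median, and 4 of them (CCNB1, MKI67, RRM2 and TOP2A) passed limma at 72 hrs and 0 at 48 hrs, with 1 at an unadjusted p under 0.05. CDK1 had a log2 fold change of 2.10 at 72 hrs (adjusted p = 0.25 in limma), and PCNA did not differ in the mean, with 8.16 and 8.41 in controls and 8.93 and 7.64 after 72 hrs. limma is a linear model with moderated variances. Here it covered all 6 arrays, and p values were adjusted by the Benjamini-Hochberg method for every probe set tested. Of all probe sets 0.0% passed it at 48 hrs and 0.0886% (34) at 72 hrs. The 4 marker calls were lost with a floor of 32, without a trend in limma, and when any single array was left out. The part of dividing cells in the KPNA2 difference was not tested. In RNA of a whole tissue, more cells with a transcript and more transcript per cell cannot be told apart.

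**Figure D1:**
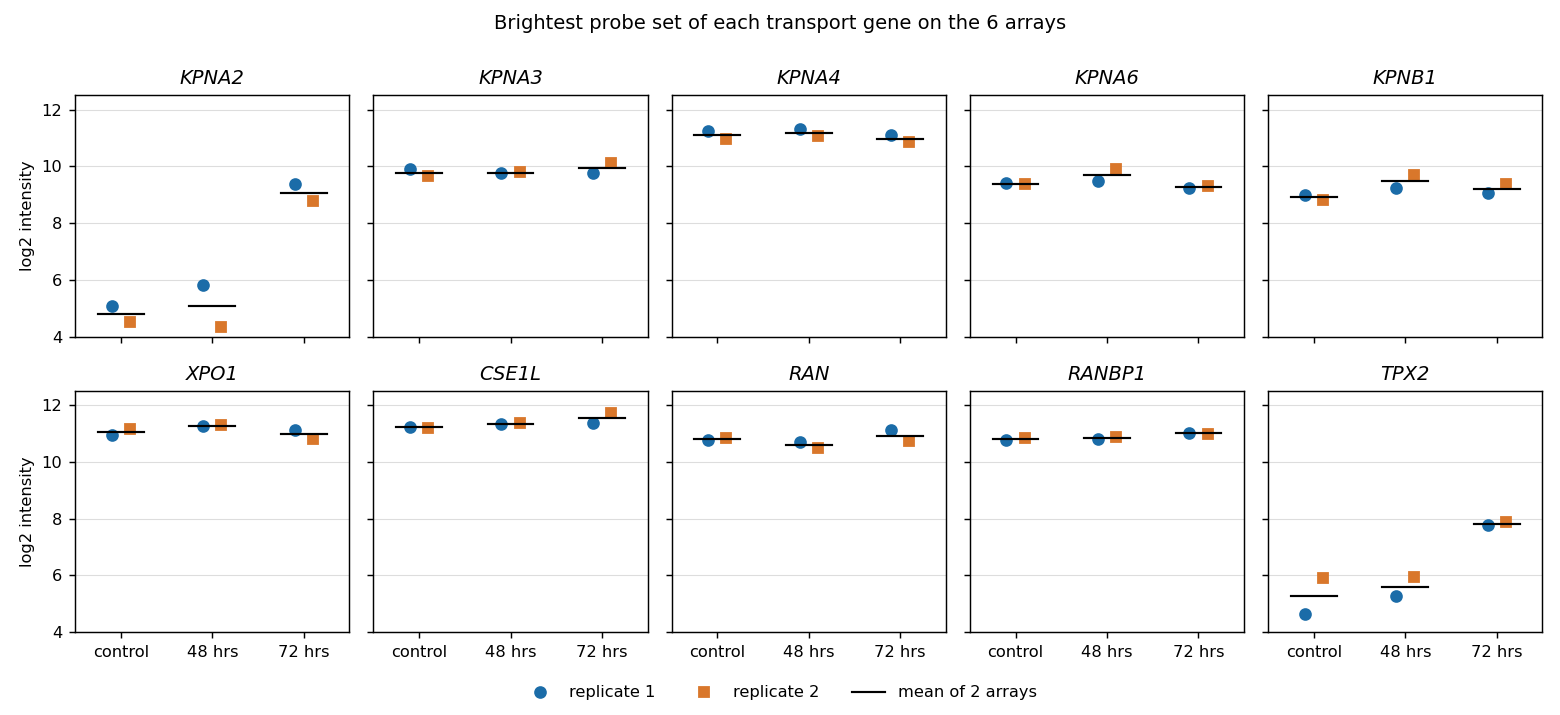
Log2 intensity (vertical axis) of the brightest probe set of each of the 10 genes on the control, 48 hr and 72 hr arrays, with replicate 1 as circles, replicate 2 as squares and the mean of the 2 arrays as a bar. KPNA2 and TPX2 stand higher at 72 hrs, by 4.29 and 2.54, while the means of the other 8 genes differ from controls by -0.22 to 0.56.

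The other importin alpha genes did not share this pattern. KPNA3 and KPNA4 encode a closely related pair of importin alpha proteins. KPNA3 had log2 intensities of 9.90 and 9.64 in controls, 9.75 and 9.79 after 48 hrs and 9.77 and 10.12 after 72 hrs, so that the groups overlapped and the log2 fold change at 72 hrs was 0.17. Its dimmer probe set gave 5.81 and 5.38 in controls, 5.79 and 5.52 after 48 hrs and 5.96 and 6.94 after 72 hrs. Its difference of 0.86 at 72 hrs came mostly from the replicate 2 array (1.57, against 0.15 for replicate 1), which is also an array with a wide GAPDH gap of 4.58. The part of RNA quality in it was not tested.

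KPNA4 had 11.26 and 10.97 in controls, 11.31 and 11.06 after 48 hrs and 11.10 and 10.85 after 72 hrs on its brightest probe set. All 3 groups overlapped, with log2 fold changes of 0.07 at 48 hrs and -0.14 at 72 hrs. The other KPNA4 probe sets had -0.02 and 0.01 after 48 hrs, then 0.09 and -0.03 after 72 hrs, and the dimmest of them ranged over 2.11 between arrays.

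KPNA6, an importin alpha of the subfamily that also holds KPNA1 and KPNA5, had 9.41 and 9.36 in controls, 9.48 and 9.89 after 48 hrs and 9.25 and 9.32 after 72 hrs. The 48 hr arrays lay above both controls and the 72 hr arrays below both, but the sizes were small, with log2 fold changes of 0.30 and -0.10. The 48 hr value rested mainly on replicate 2, with 0.53 against 0.07 for replicate 1.

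KPNB1, importin beta, was the receptor with the largest difference at 48 hrs. Its brightest probe set had 8.99 and 8.82 in controls, 9.24 and 9.69 after 48 hrs and 9.05 and 9.37 after 72 hrs. All 4 treated arrays were above both controls, with log2 fold changes of 0.56 at 48 hrs and 0.30 at 72 hrs. By replicate the 48 hr difference was 0.24 and 0.87, and the 72 hr difference 0.05 and 0.55. The dimmer KPNB1 probe set, which lies below the median brightness, did not show it: its 48 hr differences were -0.77 and 1.03.

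The exportin XPO1 was measured by 4 probe sets, which differed among themselves. The brightest had 10.93 and 11.15 in controls, 11.25 and 11.31 after 48 hrs and 11.12 and 10.82 after 72 hrs, with both 48 hr arrays above both controls and the 72 hr arrays spread over the control range and below it. Its log2 fold changes were 0.24 at 48 hrs and -0.07 at 72 hrs. At 48 hrs the other 3 probe sets had 0.22, 0.32 and 0.43, so that all 4 were positive in the mean. By replicate number the differences were 0.10 to 0.50, but these numbers are not shown to pair the arrays. The probe sets with 0.22 and 0.32 overlapped with the controls. Their 48 hr arrays at 8.09 and 7.53 lay under control arrays at 8.39 and 7.92. At 72 hrs the other 3 probe sets had 0.53, 0.23 and 0.56. The dimmest of the 4 had both 72 hr arrays above both controls (6.83 and 6.94, against 6.44 and 6.20), as its 48 hr arrays did (6.93 and 6.56).

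CSE1L, which returns importin alpha to the cytoplasm, was above both controls at both times on its brightest probe set. It had 11.23 and 11.21 in controls, 11.33 and 11.36 after 48 hrs and 11.38 and 11.71 after 72 hrs, log2 fold changes of 0.12 and 0.32. The dimmer probe set had 8.72 and 8.33 in controls, 8.62 and 8.49 after 48 hrs and 8.98 and 8.88 after 72 hrs. Here the 48 hr arrays lay between the controls and the 72 hr arrays above them, with a log2 fold change of 0.40 at 72 hrs. The sizes at 72 hrs, 0.32 and 0.40, were alike on the 2 probe sets and small beside that of KPNA2.

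RAN itself was nearly level. Its brightest probe set had 10.78 and 10.84 in controls, 10.69 and 10.50 after 48 hrs and 11.11 and 10.74 after 72 hrs, with log2 fold changes of -0.22 and 0.11. The second RAN probe set had 10.63 and 10.75 in controls, 10.61 and 10.58 after 48 hrs and 10.77 and 10.47 after 72 hrs. On both probe sets the 48 hr arrays lay below both controls, by 0.09 to 0.22 in the mean, and the 72 hr arrays lay on either side of them.

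RANBP1 varied least of the 22 probe sets on its brightest one, by 0.27 over the 6 arrays. It had 10.76 and 10.84 in controls, 10.82 and 10.86 after 48 hrs and 11.03 and 11.0 after 72 hrs, with both 72 hr arrays above both controls and a log2 fold change of 0.22 at 72 hrs. That value was 0.12 once the medians of the arrays were made equal, but 0.20 with quantile normalization, so its size depends on which scaling is used. The dimmer RANBP1 probe set had a log2 fold change of 0.37 at 72 hrs, made of 0.73 in replicate 1 and 0.01 in replicate 2.

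TPX2, the spindle assembly factor that importin alpha holds back until RAN-GTP frees it, was the other gene with a large difference at 72 hrs. On its brightest probe set it had log2 intensities of 4.64 and 5.90 in controls, 5.27 and 5.93 after 48 hrs and 7.76 and 7.87 after 72 hrs. The 72 hr arrays stood 1.86 or more above both controls, whereas the 48 hr arrays overlapped with them. Controls averaged 5.27 ± 0.89, the 48 hr arrays 5.60 ± 0.47 and the 72 hr arrays 7.81 ± 0.08 (SD, n = 2 arrays each). TPX2 was thus 5.83 times brighter at 72 hrs, with a log2 fold change of 2.54 and a moderated standard error in limma of 0.45. That error draws also on other probe sets, and not only on the SDs above. The size depended on the control array, with 3.18 without control replicate 2 and 1.91 without control replicate 1.

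All 3 probe sets of TPX2 stood above both controls at 72 hrs. The second had 4.88 and 5.16 in controls, 5.33 and 5.59 after 48 hrs and 6.57 and 6.15 after 72 hrs. The third and dimmest had 2.99 and 2.73 in controls, 4.47 and 3.70 after 48 hrs and 4.93 and 5.05 after 72 hrs. These 2 probe sets, unlike the brightest, had both 48 hr arrays above both controls, with log2 fold changes of 0.44 and 1.23 after 48 hrs, then 1.34 and 2.13 after 72 hrs. The control levels of the third, intensities of 7.93 and 6.65, lie far below an array's median, where fold changes are imprecise.

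Counted over all 22 probe sets, 5 had a log2 fold change over 0.6 at 72 hrs and 0 one under -0.6, which is the study's fold rule for differential expression and includes no test. These 5 were the KPNA2 probe set, the 3 of TPX2 and the dimmer one of KPNA3. Of all probe sets on the array, 14.0% were over 0.6 and 9.16% under -0.6 at 72 hrs, and of those brighter than the median, to which 19 of the 22 belong, 6.47% were over 0.6. These shares are of probe sets in the deposited values. They are not the study's own calls, which it gives as counts of genes. With equal array medians the rule found 4184 probe sets of the array higher and 4559 lower at 72 hrs, in place of 5377 and 3516, and with quantile normalization 4435 and 4265. Since the contrast was known when the genes were chosen, nothing is read from their count. Both 72 hr arrays lay above both controls for 10 of the 22 probe sets (17.2% on the array) and below both for 1, that of KPNA6 (12.2% on the array).

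At 48 hrs only the third TPX2 probe set was over 0.6 and 0 were under -0.6, against 10.9% and 8.75% of all probe sets and 2.61% over 0.6 among the brighter ones. Both 48 hr arrays lay above both controls for 7 of the 22 probe sets (16.0% on the array) and below both for 2, those of RAN (13.5% on the array). The count at 48 hrs was not stable: more of the 22 probe sets passed when any control or 48 hr array was left out. More probe sets of the whole array then passed as well, since a group was left with 1 array.

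The median log2 fold change of the 22 probe sets was 0.12 at 48 hrs and 0.27 at 72 hrs. Without KPNA2 and TPX2, the 18 probe sets of the other 8 genes had medians of 0.07 and 0.20, and ranged from -0.22 to 0.56 at 48 hrs and from -0.14 to 0.86 at 72 hrs. From 48 to 72 hrs, KPNA2 differed by 3.99 and the brightest TPX2 probe set by 2.22, while KPNA6, XPO1 and KPNB1 had -0.40, -0.31 and -0.26. The comparisons with controls at the 2 times share the control arrays.

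**Figure D2:**
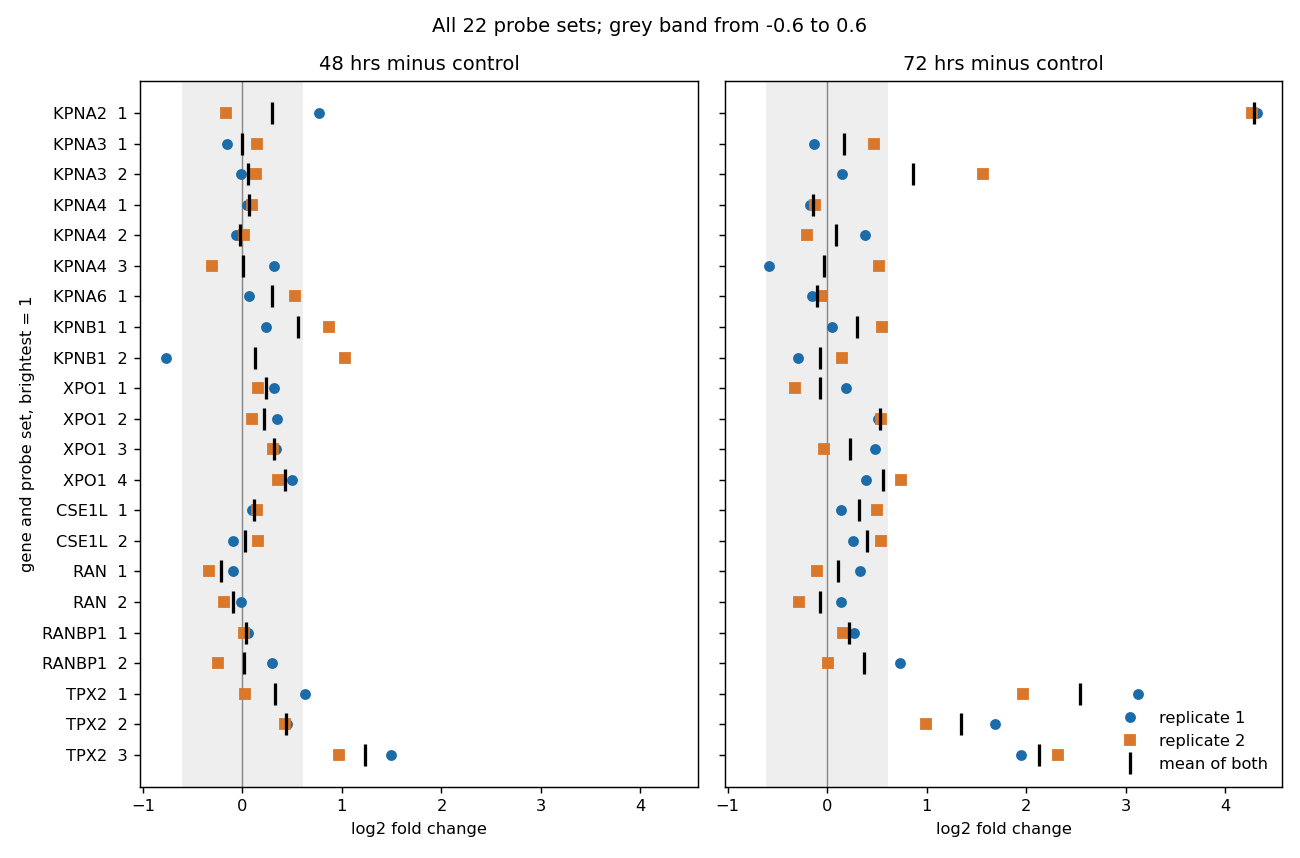
Log2 fold change (horizontal axis) of each of the 22 probe sets at 48 hrs and 72 hrs, with circles for replicate 1, squares for replicate 2, bars for the mean of both and a grey band from -0.6 to 0.6. At 72 hrs the KPNA2 probe set lies at 4.32 and 4.27, the TPX2 probe sets lie between 0.99 and 3.12, and most of the others lie within the band. Each point subtracts the control array of the same number, and these numbers are not shown to pair the arrays.

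The question of whether other genes of nuclear transport differed was addressed with 5 lists, of which 53 of 65 genes were measured, each given by its brightest probe set. The lists were chosen with earlier results of these data known, so their counts are a description. In limma, 0 of the 53 genes passed at 48 hrs and 0 at 72 hrs (0.0% and 0.0886% of all probe sets). At an unadjusted p under 0.05 there were 0 of the 53 at 48 hrs and 3 at 72 hrs, all 3 higher, against 2.44% and 3.74% of all genes. By the fold rule 2 were higher and 0 lower at 48 hrs, and 3 were higher and 0 lower at 72 hrs, where 6.82% and 9.28% of all genes were higher. The median log2 fold change of the 53 genes was 0.09 at 48 hrs and 0.15 at 72 hrs, against 0.01 at both times over all 13009 genes.

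By role, the other importin alpha genes KPNA1, KPNA5 and KPNA7 had log2 fold changes of 0.00, 0.36 and -0.28 at 72 hrs, all far below the 4.29 of KPNA2. Among the 9 measured importins of the beta family, from -0.19 to 0.71 at 72 hrs, IPO11 had the largest value. IPO11, an import receptor for cargo that includes ubiquitin-conjugating enzymes, had 8.46 and 8.22 in controls, 8.98 and 8.56 after 48 hrs and 8.92 and 9.17 after 72 hrs, with all treated arrays above both controls (log2 fold change 0.71 ± 0.24, standard error, after 72 hrs, adjusted p = 1.0 in limma). Its value was 0.20 when all its probe sets were averaged, which are thus not alike. IPO7, an import receptor for ribosomal proteins and histones, had 0.56 (adjusted p = 1.0 in limma).

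The 8 exportins and export factors, among them the tRNA exportin XPOT, ranged from -0.31 to 0.35 at 72 hrs, and 0 passed the fold rule at either time. Of the RAN cycle regulators, RCC1, which loads RAN with GTP on chromatin, had 0.63 at 48 hrs and 0.38 at 72 hrs, and RANGAP1, which makes RAN hydrolyse its GTP, had -0.10 and 0.32. The RCC1 values of 7.65 and 8.43 at 48 hrs overlapped with the controls at 6.95 and 7.86.

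Among 29 genes of the nuclear pore, values at 72 hrs ranged from -0.31 to 0.65 with a median of 0.13. NUP153, a nucleoporin of the nuclear basket, had 7.10 and 7.16 in controls, 7.25 and 7.52 after 48 hrs and 7.56 and 7.93 after 72 hrs, above both controls on all treated arrays (0.62 ± 0.25, standard error, after 72 hrs, adjusted p = 1.0 in limma). Averaged over its probe sets the NUP153 value was 0.18. AHCTF1, which starts pore assembly on chromatin, had 0.65 at 72 hrs, but its groups overlapped. At 48 hrs the largest value of the list was that of NUP98, with 0.80.

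**Figure D3:**
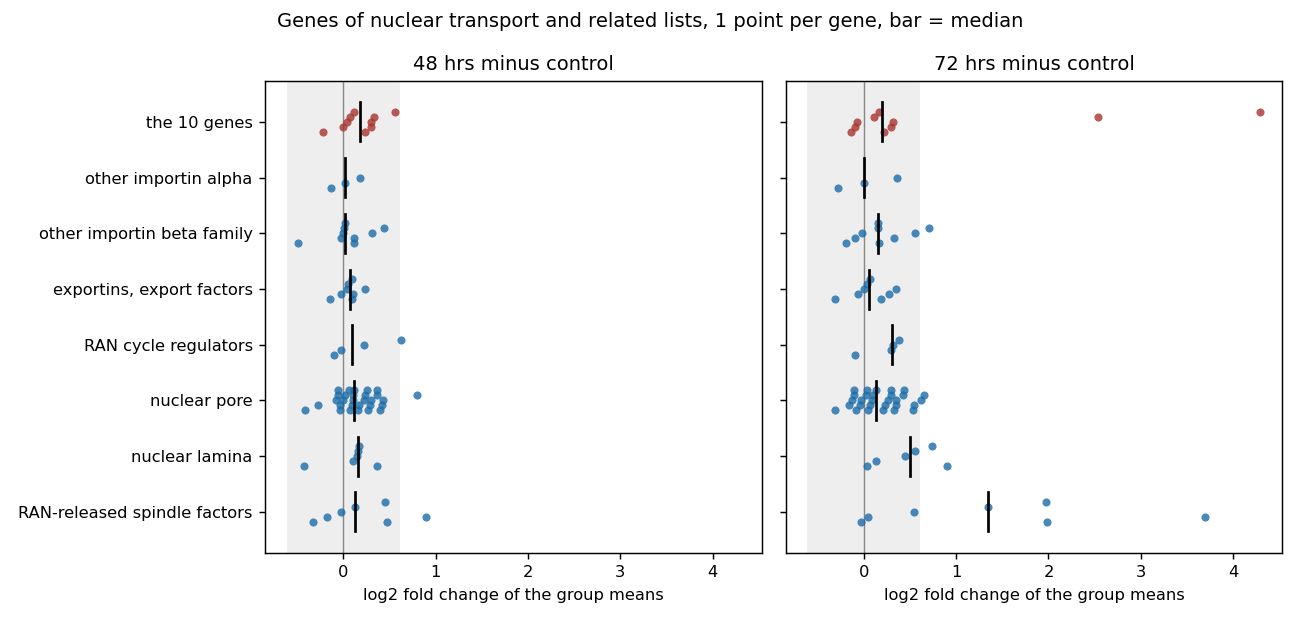
Log2 fold change of the group means (horizontal axis) at 48 hrs and 72 hrs for the 10 genes (red) and for 7 further lists (blue), 1 point per gene on its brightest probe set, with bars at the medians and a grey band from -0.6 to 0.6. At 72 hrs KPNA2 (4.29) and TPX2 (2.54) lie apart from the 53 other transport genes, which reach 0.71, and the listed spindle factors linked to RAN spread up to 3.70.

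TPX2 is not the only spindle factor that RAN-GTP frees from importins. A list of 8 spindle factors linked to RAN, of which 7 were measured, was described beside it. The list was chosen with earlier results of these data known. Its counts are therefore a description, and no enrichment is read from them. By the fold rule 4 of the 7 were higher and 0 lower at 72 hrs (9.28% of all genes higher), with a median of 1.35. In limma 0 passed, with 5 at an unadjusted p under 0.05, all higher (3.74% of all genes, in either direction). The 4 were NUSAP1, DLGAP5, HMMR (1.97) and BARD1 (1.35, which is the median). HMMR and BARD1 lie on probe sets dimmer than the median. NUSAP1, a spindle protein that bundles microtubules, had log2 intensities of 2.97 and 4.17 in controls, 4.42 and 4.51 after 48 hrs and 7.63 and 6.90 after 72 hrs (3.70 ± 0.48, standard error, after 72 hrs, adjusted p = 0.077 in limma). DLGAP5 (HURP), which stabilises kinetochore fibres, had 3.82 and 4.37 in controls, 4.78 and 4.30 after 48 hrs and 6.44 and 5.70 after 72 hrs (1.98 ± 0.43, standard error, adjusted p = 0.64 in limma). The control levels of both lie under an array's median, and with intensities raised to a floor of 32 the values were 2.26 for NUSAP1 and 1.07 for DLGAP5. In contrast, NUMA1, which gathers microtubules at spindle poles, had -0.03 at 72 hrs and the kinesin KIFC1 0.05, both on probe sets near the median brightness, with mean log2 intensities of 4.69 and 5.05. TACC3 had the brightest probe set of the list, with a mean log2 intensity of 8.95. Its log2 fold change at 72 hrs was 0.54, under the fold rule (unadjusted p = 0.025 in limma), with both 72 hr arrays above both controls.

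The genes whose profile over the 6 arrays was most like that of KPNA2 were sought among the 332 genes that were brighter than the median and ranged over at least 2 on the log2 scale, with Pearson's r as the measure. The 8 with the highest r were NUF2, a kinetochore subunit (0.987), the spindle protein CKAP2 (0.984), the mitotic cyclin CCNB1 (0.973), the ribonucleotide reductase subunit RRM2 (0.968), the condensin subunit SMC4 (0.964), the spindle motor KIF11 (0.962), the centromere gene CENPW (0.961) and CDCA3, a cell division gene (0.958). Their log2 fold changes at 72 hrs ranged from 2.56 (NUF2) to 5.24 (RRM2), and at 48 hrs from -0.13 (CDCA3) to 1.14 (RRM2). In all, 28 of the 332 had r over 0.9. With 6 arrays in 3 groups, a gene much higher on the 72 hr arrays than on the others tends to reach a high r.

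NUF2 had 6.48 and 6.56 in controls, 6.78 and 6.05 after 48 hrs and 9.42 and 8.74 after 72 hrs, so that the 48 hr replicate 2 array was the lowest and the 72 hr replicate 1 array the highest for both genes, as for CDCA3, while the order of the control arrays was not that of KPNA2. Among the transport genes, RANBP1 had r = 0.897 with KPNA2 and TPX2 r = 0.851, but RANBP1 ranged over only 0.27. The others had 0.685 (CSE1L), 0.626 (RAN), 0.490 (KPNA3), -0.031 (KPNB1), -0.317 (KPNA4), -0.479 (XPO1) and -0.634 (KPNA6) over the 6 arrays. The 2 control arrays of TPX2 lay far apart, at 4.64 and 5.90, unlike those of KPNA2 at 5.06 and 4.51.

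**Figure D4:**
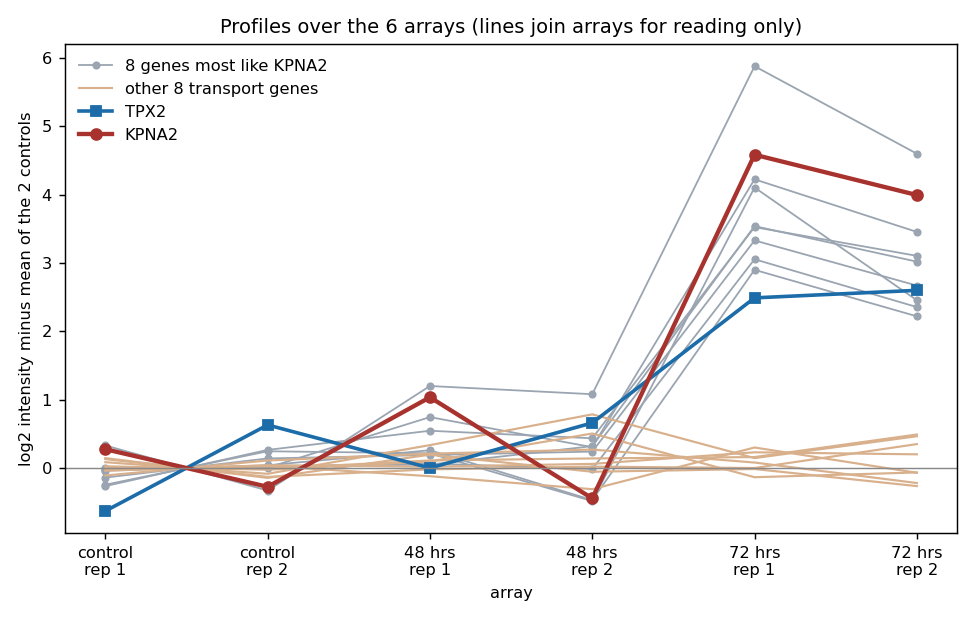
Log2 intensity minus the mean of the 2 control arrays (vertical axis) on each of the 6 arrays, for KPNA2 (red), TPX2 (blue), the 8 genes with the profile most like KPNA2 (grey) and the other 8 transport genes (tan). KPNA2 reaches 9.37 and 8.78 on the log2 scale at 72 hrs from a control mean of 4.78, together with the grey genes, while the tan lines remain within 0.87 of their own lowest value.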

How the data were processed

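The deposited values are intensities on a linear scale, 1 per probe set and array of the Affymetrix GeneChip Chicken Genome Array. The authors' methods give dChip as the software for normalization and levels, whereas MAS5, with no version, stands in the submitters' processing notes. Each of the 6 columns matched a sample, and 0 did not. The titles number the replicates and were followed, while the source names give number 2 to both control and both 48 hr arrays. Between 51.7% and 54.4% of an array's values lie under 32, which makes fold changes of dim probe sets imprecise. Values were taken to log2 without further normalization, and 153 control probe sets were left out of 38535. The platform's annotation gave 1 symbol to 27168 probe sets, several to 177 (not named) and none to the rest. A gene was given by its brightest probe set, by mean log2 intensity over all 6 arrays, unless stated.

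A log2 fold change is the difference of group means. Standard errors are the moderated ones of limma, which pool the spread of all 3 groups and borrow from the other probe sets. They can be smaller or larger than the printed SDs alone would give. The fold rule (0.6) is that of the study's methods. limma 3.58.1 in R 4.3.3 (lmFit, eBayes with a trend) was fitted to all 6 arrays and tested on simulated data, with Benjamini-Hochberg adjustment over 38382 probe sets at 0.05. Tables and figures were made with Python 3.11.15, pandas 2.3.3, numpy 2.4.6 and matplotlib 3.10.9. Genes outside the 10 were named if they passed limma or were, per list, the up to 3 largest past the fold rule at 72 hrs with a mean log2 intensity over 4.76 and both treated arrays beyond both controls, or if they were the 8 most like KPNA2. IPO7, KPNA1, KPNA5, KPNA7, XPOT, RCC1, RANGAP1, AHCTF1, NUP98, NUMA1, KIFC1, GLE1, LBR, LMNA, CDK1 and PCNA were chosen for naming once their values had been seen. So were CALB2, CHRNA9, TECTB, GJB6, SOX2, HBA1, HMMR, BARD1 and TACC3. The members and lists were chosen with earlier results of these data known. Alternatives were other scalings, a floor of 32, no trend, a replicate block, brighter probe sets only, the mean of a gene's probe sets and leaving out each array. For the other transport genes' fold rule counts, the limma counts of the dividing cell, spindle and lamina lists and named genes outside the 10 they were chosen after seeing the data.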

Additional observations from a re-analysis of the deposited data

Results flagged for a closer look

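KPNA6 and GLE1 were flagged because both 48 hr arrays lay above both controls and both 72 hr arrays below both. Of all probe sets, 16.0% lay above both controls at 48 hrs and 12.2% below both at 72 hrs. The share with both traits was not computed, and nothing is read from the pattern. The log2 fold changes of KPNA6 were 0.30 at 48 hrs and -0.10 at 72 hrs, and the difference between the times was not tested, because the gene was chosen with these values known. GLE1, an mRNA export factor of the nuclear pore, had log2 intensities of 6.93 and 7.12 in controls, 7.24 and 7.55 after 48 hrs and 6.93 and 6.91 after 72 hrs. The 72 hr value of 6.93 lies below the control value of 6.93 only in further digits. Its log2 fold changes were 0.37 and -0.11, and the difference of -0.47 between 72 and 48 hrs did not pass limma (adjusted p = 1.0).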

How the results depend on the processing

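The KPNA2 value of 4.29 at 72 hrs ranged from 4.0 to 4.59 over 10 alternatives and that of TPX2 from 1.91 to 3.18. Leaving out a 48 hr array could move neither value, and averaging the single KPNA2 probe set could not move that of KPNA2. No value past the fold rule changed sign among the 10 genes' brightest probe sets. KPNA2 at 48 hrs (0.30) ranged from -0.44 to 1.04 when a single array was left out, so its direction there depends on which 48 hr array is used, and TPX2 (0.33) from -0.30 to 0.96. RAN (0.11) and KPNA4 (-0.14) changed sign at 72 hrs in 1 alternative each and XPO1 (-0.07) in 3. Of the other transport genes 0 passed limma under any alternative. By the fold rule 1 of them was higher at 72 hrs with equal array medians, against 3, while the array had 4184 higher probe sets, against 5377. With a control array or a treated array of that time left out, their count and that of the array moved at both times. Some of them were then lower, at 48 hrs without control replicate 1 or 48 hr replicate 2. The same held at 72 hrs without 72 hr replicate 1. Among genes outside the 10, KIF11 had 1.81 at 72 hrs with the floor of 32, and CDCA3 had 1.55 as the mean of its probe sets.

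With a floor of 32 the fold rule found 683 (48 hrs) and 1611 (72 hrs) probe sets of the array in place of 7526 and 8893, and 979 and 2001 if brighter probe sets alone were tested, where fewer are tested. Under either choice 0 of the probe sets of the 10 genes passed at 48 hrs. With single arrays left out these ranged from 1 to 4 at 48 hrs and from 5 to 8 at 72 hrs (8 without 72 hr replicate 1), and the array's count at 72 hrs from 8893 to 14946 (the latter without 72 hr replicate 1). With the floor limma called 5 probe sets (48 hrs) and 2 (72 hrs), and without a trend 0 at 72 hrs. With single arrays left out it called from 0 (without either control array) to 10 (without either 48 hr array) at 72 hrs and 1 without either 72 hr array. The cause was not tested.

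With the replicate block limma called 50 probe sets at 72 hrs, against 34, and 0 of the other transport genes. Deviations of same-numbered arrays correlated with r = 0.398, 0.287 and 0.488 between groups over the brighter probe sets. With 2 numbers this does not show that they pair the samples. With the block 5 of the dividing cell markers passed at 72 hrs, against 4, and 0 spindle or lamina genes. Among brighter probe sets alone 1 spindle gene, NUSAP1, passed at 72 hrs.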

Other observations

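Genes of the nuclear lamina, the protein mesh under the nuclear envelope, were looked at beside the transport genes. Their list was also chosen with earlier results known, so its counts are a description. Of 8 listed genes 6 were measured, 2 were over 0.6 at 72 hrs and 0 under -0.6, with a median log2 fold change of 0.50 at 72 hrs and 0.16 at 48 hrs. In limma 0 passed, and 3 had an unadjusted p under 0.05 at 72 hrs, all higher. Of all genes, 9.28% were over 0.6 and 3.74% had such a p in either direction. The B-type lamin LMNB2 had log2 intensities of 7.83 and 8.43 in controls, 8.24 and 8.74 after 48 hrs and 8.71 and 9.35 after 72 hrs (log2 fold change 0.90 ± 0.32, standard error, adjusted p = 1.0 in limma). LMNB1, the other B-type lamin, had 8.34 and 8.65 in controls, 8.61 and 8.71 after 48 hrs and 9.07 and 9.41 after 72 hrs (0.74 ± 0.22, standard error, adjusted p = 1.0 in limma). Both lamins lay under 0.6 without 72 hr replicate 2, at 0.58 (LMNB2) and 0.57 (LMNB1), and LMNB1 also without control replicate 1 (0.59) and as the mean of its probe sets (0.51). LBR, the receptor that anchors B-type lamins, had 0.56 at 72 hrs, and LMNA, the A-type lamin, 0.04 on a dim probe set.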
